A study of Sus scrofa with 27 samples.

Results

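The genes of the inhibin, activin and follistatin system were measured in mural granulosa cells, which line the inner wall of the ovarian follicle, of sows that were full fed (FF) or feed restricted (RES) during lactation. The system was taken as 10 genes listed by symbol: INHA, INHBA, INHBB, FST, FSTL3, ACVR1B, ACVR2A, ACVR2B, TGFBR3 and SMAD3. Each symbol matched 1 identifier in the count tables, and all 10 genes were among the 11384 genes tested, out of 35670 identifiers counted. The list was given by name, with no threshold on the counts, although earlier results of these data were known when it was drawn up.

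Inhibins and activins are built from shared subunits. The alpha subunit INHA joined to a beta subunit, INHBA or INHBB, gives inhibin A or inhibin B, and beta subunits joined to each other give the activins. Activin binds the type II receptors ACVR2A or ACVR2B, which recruit the type I receptor ACVR1B, and the signal passes to SMAD2 and SMAD3, whereas inhibin occupies the type II receptors with the help of the coreceptor TGFBR3 without passing that signal on. Follistatin (FST) and the related FSTL3 hold activin away from its receptors, and inhibin from the granulosa cells lowers the release of follicle stimulating hormone from the pituitary.

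The 27 libraries came from 13 FF and 14 RES primiparous wild-type sows of a Large White times Norwegian Landrace cross. RES sows received 3.25 kg of feed per day and FF sows 6.5 kg per day in the last 2 weeks of lactation, and the ovaries were collected on day 2 after weaning. Between weaning and collection both groups were fed alike, fully by the labels, but by the study's methods at a daily allowance below that of either group in lactation. Per the study's methods, mural granulosa cells were cut by laser capture microdissection from 1 healthy follicle, the largest found in the right ovary, so each library stands for 1 follicle of 1 sow. The RES sows had been selected for high and the FF sows for low body weight loss, and follicle size was not matched, so feeding, weight loss and follicle size cannot be told apart here.

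The deposited counts summed to between 12299220 and 16021200 per FF library and between 12942198 and 18120922 per RES library. The tested genes held 45.9% of the counts in FF sow 10, the lowest of the 27 libraries, and up to 64.4% elsewhere. Values below are CPM, counts scaled per library to a common total, over the tested genes, scaled by TMM. Of the granulosa markers, 7 were tested, and their summed level ran from 6049 to 11513 CPM in FF and from 7655 to 11946 CPM in RES, mostly VCAN and CYB5A. Of these 7, HSD17B1, an enzyme of estradiol synthesis, was the 1 called, higher in RES (log2 0.56, SE 0.17, adjusted p = 0.0270 in edgeR's quasi-likelihood test), with 12 of 14 RES sows above the FF median. AMH averaged 0.688 CPM in FF and 0.860 CPM in RES, and FOXL2 and CYP19A1 were not analysed here. The summed theca markers reached 315 to 1627 CPM in FF and 159 to 1565 CPM in RES. In such bulk samples, fewer cells of a type and less RNA per cell cannot be told apart.

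The sequences just upstream of the beta subunit genes are shown first because the results below turn on the ratio of INHBB to INHBA, whose difference between the diets depended on the libraries and the scale used. Each is the window of 250 bases before the RefSeq gene start in Sscrofa11.1, read 5′ to 3′ on the gene's strand. Capitals mark motifs searched by their letters on both strands: TGACGTCA and TGCGTCA (cyclic AMP response element and a variant, which share their last 5 letters), AGGTCA and CAAGGTCA (nuclear receptor sites, the longer one containing the shorter), TGATAA with the related letters AGATAA (sites of GATA transcription factors), CAGACA (SMAD factors) and CCGCCC (GC box).
INHBA, chr18:52889434-52889683, plus strand: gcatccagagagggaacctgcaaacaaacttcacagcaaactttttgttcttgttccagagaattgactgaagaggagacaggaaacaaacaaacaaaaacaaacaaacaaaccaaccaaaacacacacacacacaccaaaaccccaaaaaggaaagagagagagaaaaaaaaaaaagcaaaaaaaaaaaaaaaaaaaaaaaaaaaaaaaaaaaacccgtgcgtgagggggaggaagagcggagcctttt
INHBB, chr15:31004406-31004655, minus strand: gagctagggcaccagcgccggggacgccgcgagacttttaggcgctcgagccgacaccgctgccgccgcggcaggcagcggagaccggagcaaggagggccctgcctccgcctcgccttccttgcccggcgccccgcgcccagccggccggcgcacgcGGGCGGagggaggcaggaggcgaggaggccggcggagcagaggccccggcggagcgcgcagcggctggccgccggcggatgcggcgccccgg

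The INHBA window had 36.8% GC and held none of the 8 motifs, and the INHBB window had 80.4% GC and held only CCGCCC, read on the opposite strand at bases -92 to -87 from the gene start. Of 19556 windows of this length before RefSeq genes, 45.9% held CCGCCC, 12.8% CAGACA and 12.2% AGGTCA, and the median window had 57.6% GC. The other motifs were held by 8.08% (AGATAA), 6.23% (TGATAA), 1.82% (TGCGTCA), 1.7% (TGACGTCA) and 1.17% (CAAGGTCA) of the windows. A match of letters is a description of the sequence and not a site of binding.

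Levels of the members were set side by side per kilobase of exon, using RefSeq exon lengths. The binder FST had the highest level, at 907 ± 339 CPM per kb in FF and 817 ± 244 in RES (SD, n = 13 and n = 14). INHA came next (594 ± 211 in FF and 559 ± 227 in RES), ahead of INHBA (371 ± 89.9 and 415 ± 170) and INHBB (285 ± 196 and 449 ± 158). The ligand genes and FST thus stood well above every receptor.

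Among the receptors, ACVR2A led with 43.9 ± 9.59 CPM per kb in FF and 37.2 ± 7.85 in RES, then TGFBR3 with 12.2 ± 4.30 and 11.6 ± 2.05. FSTL3 (4.59 ± 1.70 and 2.81 ± 0.871) and SMAD3 (3.29 ± 1.02 and 3.39 ± 1.21) followed, and the lowest were ACVR2B (0.629 ± 0.148 and 0.571 ± 0.125) and the type I receptor ACVR1B (0.419 ± 0.0967 and 0.273 ± 0.101). Neighbours in this order were compared within libraries by a two-sided sign-flip permutation test over 9 pairs, with Benjamini-Hochberg adjustment. INHBA was above INHBB in 16 of 27 libraries (mean log2 difference 0.21, p = 0.176, adjusted p = 0.198) and FSTL3 above SMAD3 in 13 of 27 (0.10, p = 0.441, adjusted p = 0.441). INHBA was above INHBB in 10 of 13 FF and 6 of 14 RES sows, and FSTL3 above SMAD3 in 9 of 13 FF and 4 of 14 RES sows. Over both diets together these neighbours did not differ beyond their spread, and each of the other 7 pairs kept its order in at least 22 of 27 libraries with adjusted p-values of at most 0.00028.

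The place of INHBA rests on its length. RefSeq places INHBA in partial pieces on chromosomes 18 and 12, with 3889 bases of exon together and 2139 in the longest transcript. With longest transcripts INHA was below INHBA by a log2 difference of -0.20 (permutation p = 0.00429), and INHBA was above INHBB by 1.08. The RefSeq models of FST (1037 bases) and ACVR2A (1592 bases) are short, which raises their level per kilobase. Parts of the FSTL3 (53.6%) and SMAD3 (24.2%) exon bases overlap another gene on the opposite strand. The levels per kilobase of FSTL3 and SMAD3, and their order, are uncertain for that reason too.

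**Figure D1:**
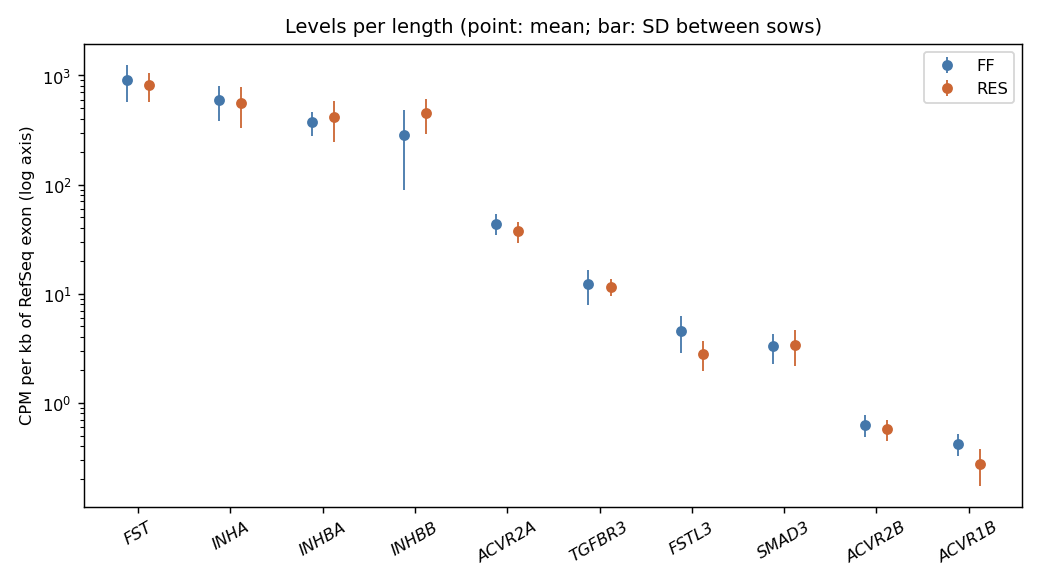
Mean level of each of the 10 members in CPM per kilobase of RefSeq exon (log axis) in FF and RES, with bars of 1 SD over 13 and 14 sows. FST and the 3 subunit genes lie above every receptor, and ACVR1B lies lowest.

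The question of the design was whether restricted feeding changed these genes. Of the 10 members, 2 were called at an adjusted p under 0.05 in edgeR's quasi-likelihood test, against 14.1% of all genes tested. Both, FSTL3 and ACVR1B, were lower in RES, the direction called for 5.85% of all genes, while none of the members was called higher, as 8.29% of all genes were. The estimate was below 0 for 7 members and above 0 for 3, with a median log2 fold change of -0.11 over the members and -0.02 over all genes. Without FF sow 10, 3 of the 10 members were called, against 18.3% of all genes, and the added gene was INHBB, higher in RES as were 10.5% of all genes.

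The alpha subunit INHA (ENSSSCG00000020771, chr15:121581847-121586020, plus strand), found in inhibins only, ranged from 309 CPM in FF sow 13 through a median of 840.3 to 1359 in FF sow 11. In RES it ranged from 319.6 CPM in sow 4 through a median of 764 to 1508 in sow 5. The diets overlapped over nearly the whole range, with 9 of 14 RES sows below the FF median. The log2 fold change of RES against FF was -0.09 (SE 0.21, 95% interval -0.51 to 0.34, adjusted p = 0.813).

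INHBA (ENSSSCG00000035077, chr18:52889684-52909260, plus strand, for the piece on chromosome 18) encodes the beta A subunit of inhibin A and activin A. It ranged from 906 to 2075 CPM in FF, with a median of 1456, and from 532 in sow 4 to 2690.5 in sow 10 of RES, with a median of 1504. RES sows lay on both sides, with 7 above and 7 below the FF median and 3 above every FF sow. The log2 fold change was 0.16 (SE 0.19, 95% interval -0.22 to 0.55, adjusted p = 0.597). The 3 RES sows above every FF sow were sows 3, 5 and 10, which were also the highest of RES in INHA. In the study's tables the RES sows of these numbers have the lowest RNA integrity values of that diet, if tables and libraries are numbered alike. The part of RNA quality in their values was not tested.

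INHBB (ENSSSCG00000038610, chr15:30999994-31004405, minus strand) encodes the beta B subunit of inhibin B and activin B. In FF it ranged from 193 CPM in sow 6 through a median of 428 to 1635 in sow 10, and in RES from 371 in sow 2 through a median of 959.9 to 1378 in sow 3. In all, 13 of 14 RES sows lay above the FF median and 12 of 13 FF sows below the RES median, while the highest value of all belonged to FF sow 10. RES was 1.58-fold FF (95% interval 1.08 to 2.29, log2 0.66, SE 0.26, p = 0.0187), which did not pass the adjustment in edgeR's test (adjusted p = 0.0907).

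Leaving out FF sow 10 changed that call. The highest remaining FF value was then 850.3 CPM, in sow 13, and 9 of 14 RES sows lay above it. The log2 fold change became 0.91 (SE 0.23, adjusted p = 0.00759), against a range of 0.58 to 0.91 (adjusted p = 0.00759 to 0.145) over leaving out each library. FF sow 10 also ranked first of the FF sows in SMAD3 and in the summed stroma markers (4675 CPM), last in ACVR2A and 12th of 13 in FST and in the summed granulosa markers. In the study's tables the sow of the same number has the lowest RNA integrity value and the largest share of multiply mapped reads of all sows. The labels, however, name another FF sow as left out for low RNA integrity, so it is not certain that the tables and the libraries are numbered alike. The part of RNA quality in the INHBB value of this library was not tested.

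INHBB was also compared within the libraries split by sequencing quality. The study's read statistics leave a gap in the share of bases at quality 20, with 7 FF and 7 RES libraries above it and 6 FF and 7 RES libraries, FF sow 10 among them, below it. Libraries were matched to those statistics by sow number, so the doubt about the numbering applies to this split too. Above the gap, INHBB ranged from 193 to 740.1 CPM in FF (median 342) and from 451 to 1200.1 in RES (median 1018), and 6 of 7 RES sows lay above every FF sow. Below the gap it ranged from 399.6 to 1635 in FF (median 582) and from 371 to 1378 in RES (median 697), with overlap over nearly the whole range. By the same share of bases, RES sows 3 and 5 stood below every other library by an even wider step. The diets were thus not balanced in quality within the lower group, and RES sow 3 was the highest RES sow in INHBB.

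The log2 fold change of INHBB was 1.30 (SE 0.30, adjusted p = 0.0124) in the upper group and 0.07 (SE 0.34, adjusted p = 0.963) in the lower group. In the lower group without FF sow 10 it was 0.46 (SE 0.29, p = 0.141, adjusted p = 0.599). The test of the difference itself gave an interaction of -1.23 (SE 0.48, p = 0.0161, adjusted p = 0.327), and -0.84 (SE 0.44, p = 0.0697, adjusted p = 0.654) without FF sow 10, so the groups were not shown to differ after adjustment. By edgeR's test 0 of 11384 genes had a called interaction, and 1398 (12.3%) had an unadjusted p under 0.05.

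INHBB is also rich in G and C. Its RefSeq exons had 71.9% GC, exceeded by 5 of the 10631 tested genes with a value, whose median was 49.9%. INHA had 66.4% and INHBA 55.2%. The count-weighted mean exon GC ran from 43.3% to 44.8% over the 27 libraries, with 44.3% in FF sow 10. With that mean as a covariate, a choice made after seeing the data, the log2 fold change of INHBB was 0.70 (SE 0.23, adjusted p = 0.0384, with 15.9% of all genes called). It was 0.89 (adjusted p = 0.00384, with 19.3% of all genes called) when FF sow 10 was also left out. By limma voom with sample quality weights INHBB was called too (0.89, adjusted p = 0.00305), as were 28.0% of all genes. It was not called by DESeq2 on the same 11384 genes (0.65, adjusted p = 0.0561), nor with the share of counts on tested genes as a covariate, also chosen after seeing the data (0.78, adjusted p = 0.0703).

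**Figure D2:**
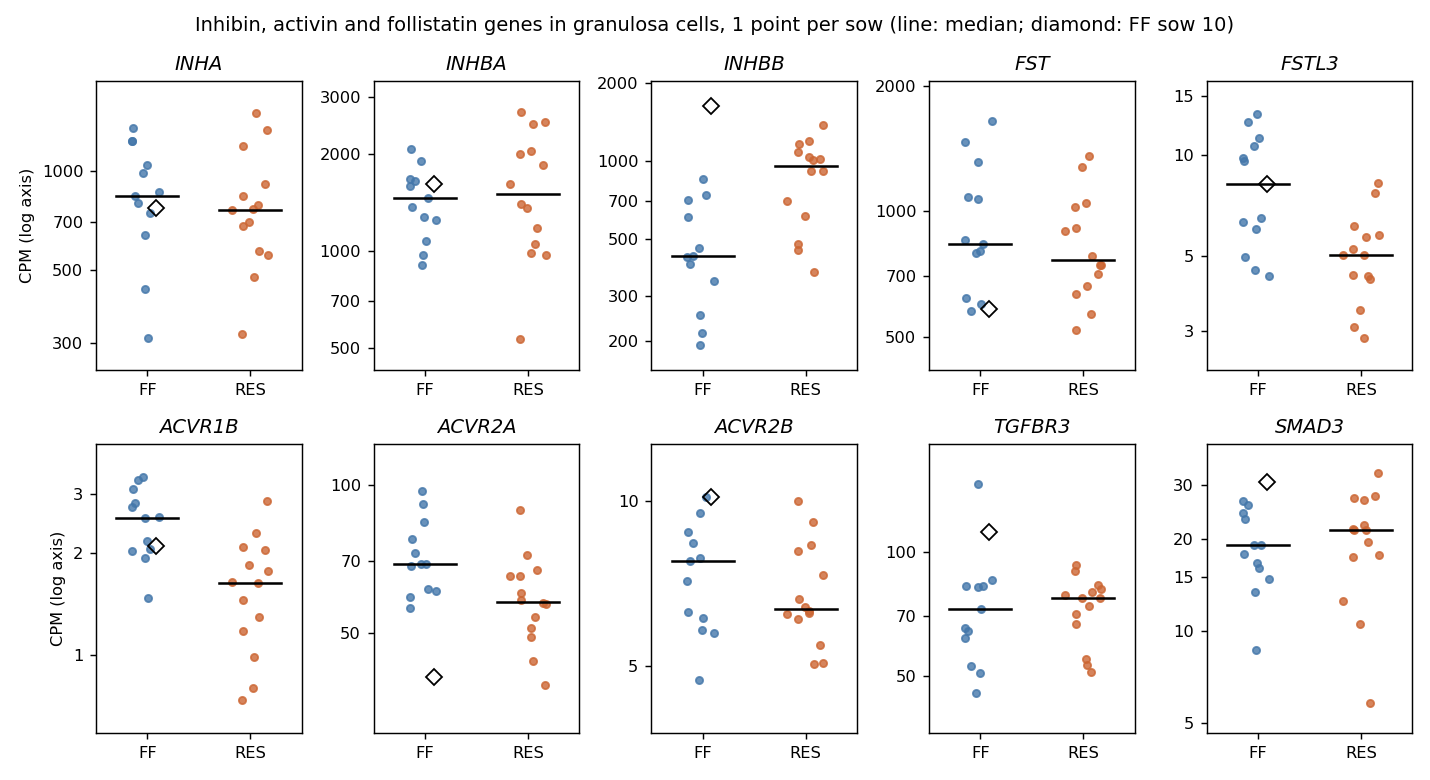
CPM (log axis) of each of the 10 members in every sow, by diet, with group medians and FF sow 10 as an open diamond. FSTL3 and ACVR1B lie lower in RES with overlap, and INHBB has a higher median in RES with overlap, FF sow 10 at 1635 CPM being the highest of all sows.

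FST (ENSSSCG00000016892, chr16:32806341-32811382, plus strand), the main activin binder of the granulosa layer, ranged from 576 CPM in sow 2 through 835 to 1640.4 in sow 3 of FF. In RES it ranged from 519 in sow 7 through 762 to 1359 in sow 5. The groups overlapped (log2 -0.15, SE 0.17, 95% interval -0.50 to 0.20, adjusted p = 0.590).

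FSTL3 (ENSSSCG00000037102, chr2:77656655-77662608, minus strand), the follistatin-like binder, ranged from 4.38 CPM in sow 3 through 8.24 to 13.3 in sow 7 of FF. In RES it ranged from 2.86 in sow 1 through 5.04 to 8.27 in sow 3. Here 13 of 14 RES sows lay below the FF median, 5 lay below every FF sow, and 6 FF sows lay above every RES sow. RES stood at 0.612 times FF (95% interval 0.470 to 0.798, log2 -0.71, SE 0.19, adjusted p = 0.0123).

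The FSTL3 call held with each of the 27 libraries left out in turn (log2 -0.78 to -0.63, adjusted p = 0.00644 to 0.0269). It rests on 28 to 111 counts per library. In RefSeq, 973 of its 1815 exon bases (53.6%) overlap PRSS57 on the opposite strand, and the counting used no strand option, so reads there could not be assigned by strand. Whether such reads were counted for FSTL3 or left out was not checked. PRSS57 itself had 0 to 3 counts per library, which for the same reason does not settle its level.

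The type I receptor ACVR1B (ENSSSCG00000000233, chr5:17314322-17350726, plus strand), through which activin reaches the SMADs, ranged from 1.47 CPM in sow 13 through 2.54 to 3.37 in sow 12 of FF. In RES it ranged from 0.737 in sow 4 through 1.64 to 2.84 in sow 3. As for FSTL3, 13 of 14 RES sows lay below the FF median, and 6 lay below every FF sow. RES was 0.656 times FF (log2 -0.61, SE 0.18, 95% interval -0.98 to -0.23, adjusted p = 0.0258). The call held with each library left out (log2 -0.70 to -0.55, adjusted p = 0.0106 to 0.0485), on only 6 to 32 counts per library, and ended (adjusted p = 0.0518) when identifiers without a symbol were tested too.

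Within the quality groups the FSTL3 estimate was -0.70 above the gap (adjusted p = 0.102) and -0.72 below it (adjusted p = 0.223). ACVR1B was at -0.77 above it (adjusted p = 0.0413) and -0.45 below (adjusted p = 0.575). In the upper group 2 of 10 members, INHBB and ACVR1B, were called by edgeR, against 17.8% of all genes. In the lower group 0 of 10 were called, against 0.00878% of all genes, and FSTL3 alone had an unadjusted p under 0.05.

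Some markers of other cell types were lower in RES, as FSTL3 and ACVR1B were. Over all genes 5.85% were called lower and 14.1% either way. Of 7 theca markers 1 was called, CYP11A1, the first enzyme of steroid synthesis, at a log2 fold change of -1.28 (adjusted p = 0.00920). Of 5 endothelial markers 2 were called lower (CDH5 and EMCN, summed list 128 to 276 CPM in FF and 84.0 to 278 in RES), and of 6 smooth muscle and pericyte markers 2 were called lower (PDGFRB and RGS5, 339 to 976 and 223 to 966 CPM). None of the 4 immune markers was called (20.5 to 66.4 and 11.2 to 62.3 CPM). For each of these 4 lists, 12 of 14 RES sows had a sum below the FF median. Of 6 stroma markers none was called, with 10 of 14 sums below the FF median, and the 1 oocyte marker tested, GDF9, was not called, with 9 of 14 below. Of 2 erythroid markers 1 was called lower, with sums of 4.32 to 129 CPM in FF and 1.08 to 16.0 in RES and 10 of 14 below. No tested marker of these lists averaged 0 in either group. The part of these markers in the FSTL3 and ACVR1B differences was not tested.

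The type II receptors did not pass the test. ACVR2A (ENSSSCG00000015669, chr15:4177333-4259056, minus strand) ranged from 40.7 to 97.1 CPM in FF (median 69.0) and from 39.2 to 89.2 in RES (median 58.0), with 12 of 14 RES sows below the FF median. On the log2 scale RES differed by -0.24 (SE 0.12, p = 0.0496, adjusted p = 0.166), and -0.29 (SE 0.11, adjusted p = 0.0617) without FF sow 10, which was the lowest FF sow. ACVR2B (ENSSSCG00000011257, chr13:23237699-23276086, plus strand) ranged from 4.72 to 10.2 CPM in FF (median 7.78) and from 5.04 to 10.0 in RES (median 6.35). The estimate was -0.14 on the log2 scale (SE 0.13, adjusted p = 0.506).

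TGFBR3 (ENSSSCG00000006911, chr4:125109939-125310788, plus strand), the coreceptor betaglycan that strengthens inhibin binding, ranged from 45.5 to 146 CPM in FF (median 72.5) and from 51.1 to 93.1 in RES (median 77.2). The highest FF value was in sow 14, and the groups overlapped (log2 -0.07, SE 0.14, adjusted p = 0.784). SMAD3 (ENSSSCG00000004952, chr1:164998457-165124455, plus strand), which carries the activin signal to the nucleus, ranged from 8.68 to 30.7 CPM in FF (median 19.1) and from 5.82 to 32.7 in RES (median 21.4). Its log2 fold change was 0.04 (SE 0.19, adjusted p = 0.910). In RefSeq, 24.2% of the SMAD3 exon bases overlap AAGAB on the opposite strand, whose counts were 254 to 785 per library.

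By quality group, SMAD3 lay at 0.43 above the gap and -0.35 below it (interaction p = 0.0438, adjusted p = 0.399), neither of them called.

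**Figure D3:**
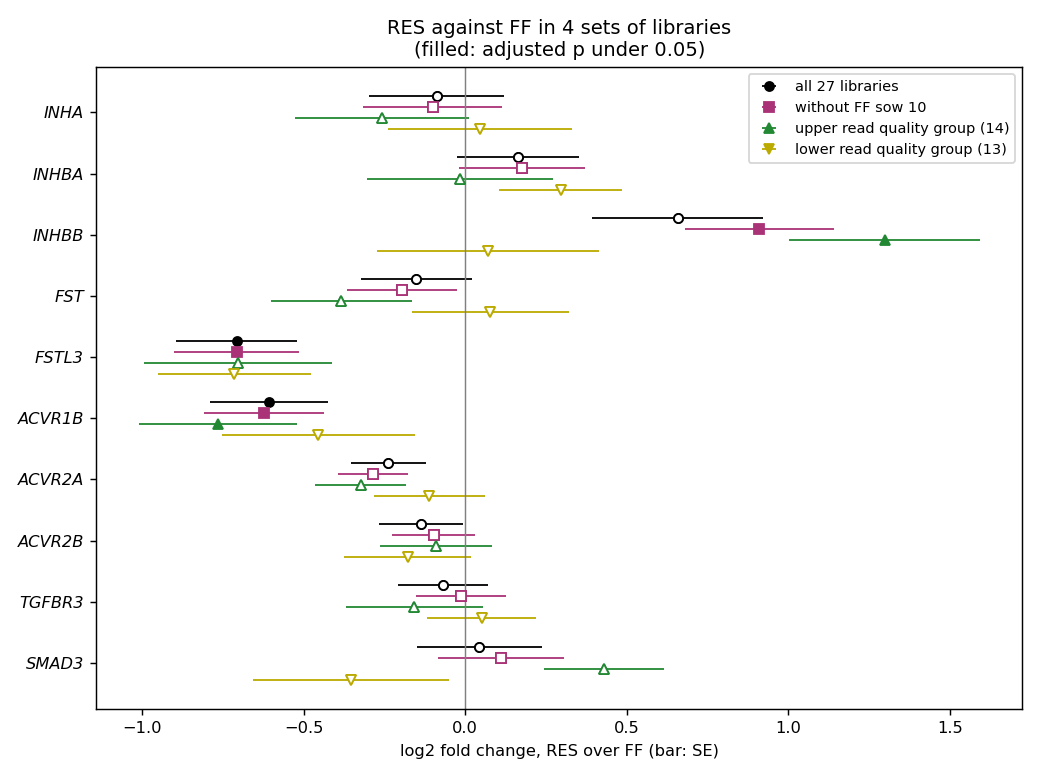
Log2 fold change of RES against FF with its SE for each of the 10 members, in all 27 libraries, without FF sow 10, and in each sequencing quality group; filled points have an adjusted p under 0.05. INHBB moves from 1.30 in the upper to 0.07 in the lower group, while FSTL3 lies near -0.7 in each.

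Ratios of counts within a library do not depend on its depth. They are not per length, so only the difference between diets is read. The 5 ratios share genes, most of them INHBB, so they are not independent results. The ratio of INHA to INHBB ran from 0.363 to 4.87 in FF (median 2.10) and from 0.398 to 1.76 in RES (median 0.932), and every one of the 14 RES sows lay below the FF median. INHA counts exceeded INHBB counts in 11 of 13 FF sows and 6 of 14 RES sows. The mean log2 ratio was 0.79 ± 1.06 in FF and -0.12 ± 0.62 in RES (SD), and RES minus FF was -0.90 (permutation p = 0.0120, two-sided, adjusted over 5 ratios p = 0.0392).

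The ratio of INHBB to INHBA, the beta B to the beta A subunit, ran from 0.169 in sow 7 to 1.01 in sow 10 of FF (median 0.278) and from 0.239 to 1.22 in RES (median 0.528). In 13 of 14 RES sows it was above the FF median. The log2 difference was 0.73 (permutation p = 0.0157, adjusted p = 0.0392). The ranges of the diets overlapped, and with the ratio left on a linear scale the difference of 0.230 missed the adjusted threshold (permutation test, adjusted p = 0.0653).

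INHA to INHBA ran from 0.289 to 0.821 in FF (median 0.615) and from 0.376 to 0.749 in RES (median 0.492), with 13 of 14 RES sows below the FF median. Its log2 difference of -0.17 did not pass the test (permutation p = 0.193, adjusted p = 0.193). INHA to the sum of both beta subunits had a median of 0.476 in FF and 0.327 in RES, and 14 of 14 RES sows lay below the FF median. That log2 difference of -0.39 missed the adjusted threshold (permutation p = 0.0309, adjusted p = 0.0515). FST to the sum of the beta subunits had medians of 0.380 and 0.348, with a difference of -0.42 (permutation p = 0.180, adjusted p = 0.193).

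Without FF sow 10 the differences were larger, at -1.06 for INHA to INHBB and 0.87 for INHBB to INHBA (permutation tests, adjusted p = 0.00767 for both), and -0.46 for INHA to both beta subunits (adjusted p = 0.0156). The same held without FF sow 13, at -1.09 for INHA to INHBB and -0.51 for INHA to both beta subunits (permutation tests, adjusted p = 0.00287 for both). INHBB to INHBA was then 0.84 (adjusted p = 0.0093). INHA to INHBB and INHBB to INHBA each lost the adjusted call when any 1 of 13 libraries was left out (FF sows 1, 2, 3, 6, 7, 8, 11, 12 and 14 and RES sows 1, 4, 9 and 11, adjusted p = 0.0531 to 0.0742), while the unadjusted p over all 27 such tests was at most 0.0240 and 0.0297. INHA to INHBA passed only without FF sow 13 (-0.26, adjusted p = 0.0287). INHA to both beta subunits passed without FF sow 4, 10 or 13 or RES sow 5 or 6 (adjusted p = 0.00287 to 0.0477).

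By exact permutation tests in the upper quality group, the log2 differences were -1.70 for INHA to INHBB and 1.54 for INHBB to INHBA (p = 0.00117, adjusted p = 0.00291 for both) and -0.66 for INHA to both beta subunits (p = 0.00175, adjusted p = 0.00291). In the lower group the same exact tests gave -0.04, -0.13 and -0.10 (adjusted p = 0.936). Without FF sow 10 the lower group gave -0.33, 0.12 and -0.22 (exact permutation tests, adjusted p = 0.669, 0.722 and 0.669). The difference between the quality groups was not tested for the ratios.

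**Figure D4:**
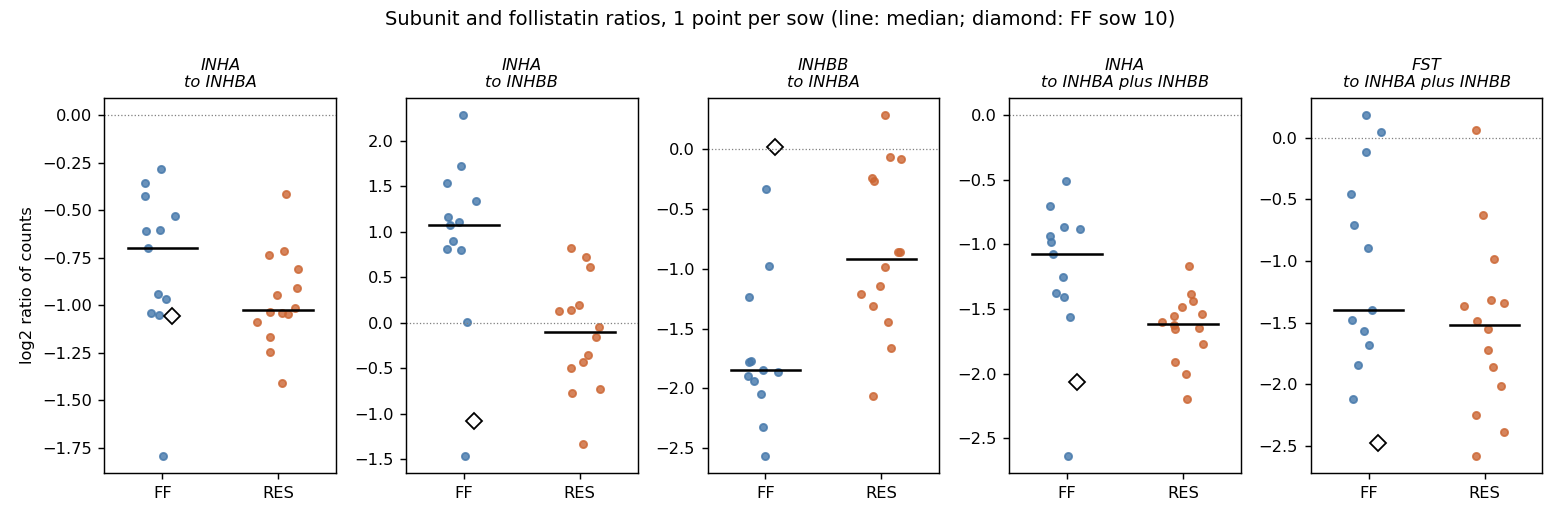
Log2 of the 5 count ratios in every sow, by diet, with lines at the group medians, a dotted line at 0 and FF sow 10 as an open diamond. All 14 RES sows lie below the FF median in the ratio of INHA to INHBB, with overlap of the diets.

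Between sows of the same diet, INHA and INHBA rose and fell together. Centred within diet, their log2 CPM correlated with r = 0.83 over 27 sows (two-sided permutation p = 1e-05, the smallest that 100000 permutations can give, adjusted over 6 pairs 6e-05), and Spearman's rho was 0.80 (p = 2e-05). Without the 2 libraries farthest from the median of INHA, r was 0.84. It was 0.76 within FF (permutation p = 0.00199) and 0.93 within RES (permutation p = 1e-05), and 0.83 within diet and quality group. RES sows 3, 5 and 10, the highest of RES in both genes, were not left out in any setting, and the part of RNA quality was not tested.

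INHBB gave lower correlations, whose difference from that of INHA with INHBA was not tested. With INHBA its r was 0.39 (permutation p = 0.0273, adjusted p = 0.0818, rho 0.44), 0.30 without the 2 farthest libraries (permutation p = 0.125), and 0.52 within diet and quality group, which passed the adjustment (permutation p = 0.00299, adjusted p = 0.00897). With INHA its r was 0.18 (permutation p = 0.371, rho 0.14). INHBB and FST had r = -0.40 (permutation p = 0.0517, adjusted p = 0.103, rho -0.41), with -0.57 in FF and -0.11 in RES. FST correlated with INHA at 0.04 (permutation p = 0.862) and with INHBA at -0.16 (permutation p = 0.395). By quality group, FST with INHA gave -0.54 in the upper (permutation p = 0.0430) and 0.43 in the lower (permutation p = 0.162), and FST with INHBA gave -0.53 (permutation p = 0.0237) and 0.08 (permutation p = 0.805). These p-values are not adjusted, and the difference between the quality groups was not tested.

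**Figure D5:**
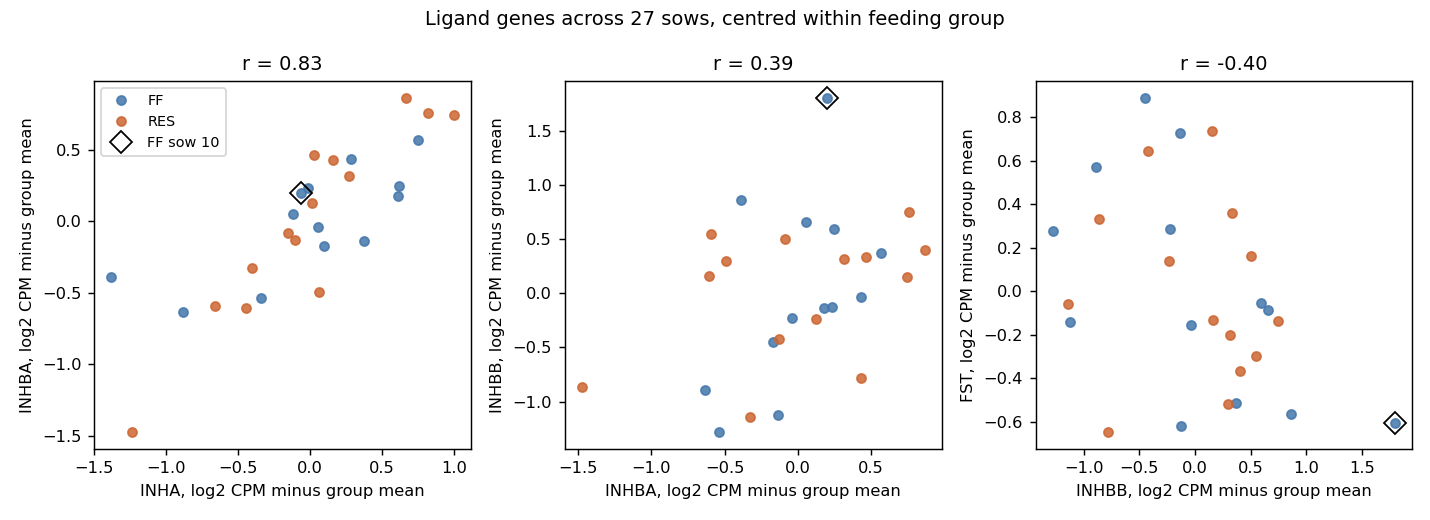
Log2 CPM minus the group mean for 3 pairs of genes (INHA with INHBA, INHBA with INHBB, INHBB with FST), 1 point per sow coloured by diet, with FF sow 10 marked by an open diamond. INHA and INHBA form a rising band with r = 0.83, and FF sow 10 stands far from the other sows in INHBB.

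The spread between sows differed by gene. The SD of log2 CPM of INHBA was 0.36 in FF and 0.66 in RES, 1.82 times as large, whereas that of TGFBR3 was 0.46 and 0.27, and that of INHBB was 0.86 and 0.59 (FF without sow 10, 0.70). INHA had 0.60 and 0.59 and FST 0.52 and 0.42. The part of RNA quality in the INHBA spread, where RES sows 3, 5 and 10 were highest, was not tested. The median SD over all tested genes was 0.348 in FF and 0.336 in RES, and over the 1876 genes of at least 100 CPM it was 0.255 and 0.238, so the subunit genes varied more between sows than a typical gene of high level.

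Over the 27 libraries centred within diet, the genes most like each ligand gene or FST were taken from the 3 with the highest r of 11374 genes, as a description. For INHA they were TMEM120A (0.86), DDA1 (0.85) and DDX56 (0.84). For INHBA they included POR (0.89), the electron donor of microsomal P450 enzymes, and SLC25A28 (0.85), a mitochondrial iron carrier. For INHBB they included EIF4G1 (0.88), a translation initiation factor, and C1orf131 (0.88). For FST they were PTPN18 (0.76), HS3ST5 (0.70) and UNC80 (0.69), lower values than for the subunits. All of these points share a library and its base composition.

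Other genes of the pathway were taken in 7 lists. Of their 42 distinct genes tested, 6 were called (14.3%, against 14.1% of all genes), and all 6 were lower in RES. Of 6 other receptors of the family, 2 were called lower. The type I receptor BMPR1B ranged from 85.9 to 254 CPM in FF (median 177) and from 60.5 to 172 in RES (median 118), with 14 of 14 RES sows below the FF median (log2 -0.49, SE 0.16, adjusted p = 0.0373). TGFBR2, the type II receptor of TGF-beta, ranged from 39.7 to 60.1 CPM in FF and from 21.9 to 64.7 in RES (medians 50.7 and 33.4, log2 -0.48, SE 0.14, adjusted p = 0.0236). BMPR2, a type II receptor shared by BMPs and GDF9, had the highest mean level, 471 CPM in FF and 374 in RES. ACVR1C, another activin type I receptor, had 0 counts in every library.

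Among 5 other ligands only MSTN (myostatin) was called (log2 -1.20, SE 0.39, adjusted p = 0.0381), on 0 to 2.29 CPM. Among 4 other binders TMEFF1, a membrane protein with follistatin modules, was called lower (-0.45, SE 0.14, adjusted p = 0.0331), with 14 of 14 RES sows below the FF median. FSTL1 was the most abundant of them, with means of 616 CPM in FF and 713 in RES. Of 13 SMADs and partners only PPM1A, a phosphatase that acts on SMADs, was called (-0.23, SE 0.07, adjusted p = 0.0262), and SMAD2 had the highest means, 1722 and 1766 CPM.

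None of the 4 convertases, which cut the subunit precursors, and none of the 6 factors known to act on inhibin gene transcription was called by edgeR. Of those factors, NR5A2 averaged 724 CPM in FF and 734 in RES. Of 6 genes known to respond to SMAD3, only LTBP2, a matrix protein that resembles the latent TGF-beta binders, was called (-0.79, SE 0.24, adjusted p = 0.0284). The list medians of the log2 fold change were -0.31 for receptors, -0.30 for ligands, -0.23 for binders, -0.13 for SMADs and partners, -0.13 for convertases, 0.02 for the transcription factors and -0.11 for the SMAD3 genes, beside -0.02 over all genes.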

How the data were processed

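RNA of mural granulosa cells of 27 sows was sequenced, 1 library per sow. Per the study's methods and the submitters' processing notes, the authors aligned paired reads to Sscrofa11.1 with HISAT2 2.2.1, kept uniquely mapped reads with SAMtools 1.16.1, removed duplicates by molecular identifier with UMI-tools 1.1.4 and counted reads per gene over Ensembl exons with featureCounts 1.6.2. The deposited values are raw counts per gene, and per the file headers no strand option was set.

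Here, genes with a symbol and a mean count of at least 5 were tested, small RNA symbols left out, which gave 11384 of 35670 identifiers. RES was compared with FF by the quasi-likelihood test of edgeR 4.0.16 (R 4.3.3) with TMM scaling and Benjamini-Hochberg adjustment over all genes tested, called at an adjusted p under 0.05. The study's own method, DESeq2 (1.42.0 here), was an alternative, as was limma voom (3.58.1). Ratios took 0.5 counts added to each gene, and ratios, correlations and order of levels were tested with 100000 permutations in Python 3.11.15 with scipy 1.17.1, or exactly within quality groups. Fold changes and SEs are on the log2 scale. Levels per kilobase, positions, GC and upstream windows came from RefSeq (Sscrofa11.1), matched by symbol for all 10 members. Its gene models can differ from the Ensembl models behind the counts.

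All 10 members are named. Of the pathway lists, called genes are named, up to 4 per list and direction, and the highest gene where levels are given. A few items that these rules would show are not reported here. The members and lists were chosen with earlier results of these data known. The p-values measure the spread between single follicles of different sows. In simulated counts of 11384 genes in 13 and 14 libraries, the edgeR test recovered 62 of 100 genes changed 1.5-fold and 85 of 100 changed 2-fold, with 6 of 11184 unchanged genes called. Other scalings, tests, filters, covariates, a replicate block, quality groups and each library left out were tried.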

Additional observations from a re-analysis of the deposited data

How the results depend on the processing

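Counts of 6 to 32 for ACVR1B and 28 to 111 for FSTL3 limit the precision of both. By voom with sample weights 3193 genes were called, in the lower quality group 1, and there without FF sow 10 none of 11384 (0), in place of 1610. Leaving out each library gave 1182 to 2350 called genes. Covariates of library GC or share of counts on tested genes, and the lower quality group without FF sow 10, were chosen after seeing the data. Of the 10 members, 1 was called with all identifiers tested, a setting in which 2263 of 17467 identifiers were called. In the lower group 0 members were called, also without FF sow 10. Leaving out 1 library called 2 members, or 3 without FF sow 10.

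Of 9 other settings on all libraries or those with shared sow numbers, 7 left INHBB uncalled, DESeq2 among them (0.65, adjusted p = 0.0561), as did the share covariate (0.78). INHBB was called by voom (0.89), with library GC (0.70, and 0.89 without FF sow 10), in the upper group (1.30) and without FF sow 10 (0.91, the range over libraries being 0.58 to 0.91). FSTL3 missed the threshold in the upper (-0.70) and lower group (-0.72, and -0.73 without FF sow 10), and ACVR1B with all identifiers (-0.56) and in the lower group (-0.45, and -0.50 without FF sow 10). Signs turned, none of them called, for INHA (0.046) and FST (0.078) in the lower group, INHBA in the upper (-0.017), TGFBR3 by voom (0.025), with the share covariate (0.012), in the lower group (0.051, and 0.22 without FF sow 10) and without FF sow 14 (0.043, range -0.12 to 0.043), and SMAD3 by voom (-0.051), in the lower group (-0.35, and -0.27 without FF sow 10) and without FF sow 6 (-0.021) or RES sow 3 (-0.026, range -0.026 to 0.12). The cause was not tested.

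As a linear ratio, INHBB to INHBA differed by 0.230 (adjusted p = 0.0653, no longer past the threshold) and INHA to both beta subunits by -0.123 (adjusted p = 0.0205, now past it). In the lower group the differences were -0.043 for INHA to INHBB (-0.33 without FF sow 10) and -0.13 for INHBB to INHBA (0.12 without FF sow 10), and in the upper group -0.66 for INHA to both. Leaving out each library gave -0.26 to -0.13 for INHA to INHBA, -1.09 to -0.78 for INHA to INHBB, 0.64 to 0.87 for INHBB to INHBA and -0.51 to -0.33 for INHA to both. The correlation of INHA and INHBB was -0.012 in FF, that of INHBA and INHBB 0.52 within diet and quality group (adjusted p = 0.00897, now past the threshold), and that of INHA and FST -0.034 as rho, -0.031 without the 2 farthest libraries, -0.0054 in RES and -0.027 within diet and quality group. With longest transcripts INHA over INHBA became -0.20 and INHBA over INHBB 1.08.

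Sow numbers shared by the diets only name the sows: the deviations of 13 same-numbered pairs correlated at -0.20 to 0.29 (median 0.01), and 0 of 13 sows matched its own number best. With the number as a replicate block, 1084 genes were called, against 1227 in the same 26 libraries without it. By edgeR's test INHBB passed at 0.80 with the block (adjusted p = 0.0428), but not in the same libraries without it (0.65, adjusted p = 0.117). The paired ratios were -0.86 for INHA to INHBB and 0.67 for INHBB to INHBA (sign-flip permutation test, adjusted p = 0.0641 for both). The same 26 libraries, without RES sow 9, gave the same ratio differences with no pairing (adjusted p = 0.0653 for both), so both ratio calls were lost with that library and not by the pairing.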
